A study of Mus musculus with 8 samples.

Results

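The genes described here encode brain-derived neurotrophic factor (Bdnf), the low-affinity neurotrophin receptor p75 (Ngfr), the tyrosine kinase receptors TrkB (Ntrk2) and TrkC (Ntrk3), the kinase RET (Ret) and the glial cell line-derived neurotrophic factor (GDNF) family co-receptors Gfra1, Gfra2 and Gfra3. They were taken by symbol from RNA sequencing counts of mouse dorsal root ganglia, and all 8 were found among the 25780 genes counted. The series compared inducible G9a knockout mice (iKO) given complete Freund's adjuvant (CFA), iKO mice given vehicle, wild-type mice (WT) given CFA and WT mice given vehicle. CFA, a suspension of killed mycobacteria in oil that causes lasting inflammation, or vehicle was given in the left paw, and ganglia were taken 14 days later. Each of the 4 groups had 2 libraries. The iKO mice carried Avil-iCreERT2/AJwo, a Cre recombinase that tamoxifen-like drugs activate and that is driven by the sensory neuron gene Avil, with G9a flox/flox, loxP-flanked alleles of Ehmt2. The WT mice were littermates without Cre, and the labels do not say if their G9a alleles were floxed. Since Avil marks sensory neurons, glia, vessels and immune cells of an iKO ganglion would keep their G9a. The inducing drug, the age and sex of the mice, the side and level of the ganglia and whether each library came from its own animal were not stated, so p-values measure only the spread between these libraries.

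Sensory neurons depend on target-derived trophic factors. Neurotrophins act through Trk tyrosine kinases, with TrkB for BDNF and TrkC for neurotrophin-3, and neurotrophins also bind p75, a receptor without kinase activity. GDNF family ligands bind a GFRα co-receptor on the cell surface, and the pair activates RET. In adult ganglia, RET is known from non-peptidergic nociceptors and some mechanoreceptors, TrkB from mechanoreceptors and TrkC from proprioceptors and other large myelinated neurons. BDNF made in nociceptors is carried to the spinal cord, where it modulates pain transmission.

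Bdnf and Ngfr gave 3 of the 5 member calls made below between single groups, so sequences before their starts are shown. For Bdnf the gene-level counts join transcripts of all starts, while Ngfr has 1 transcript in the GENCODE M21 annotation. RefSeq windows on GRCm38.p6 were found for 4 of the 8 genes (Bdnf, Ngfr, Ntrk2 and Gfra1), with 7 starts for Bdnf. The 250 bases before each start were searched on both strands for the core of the cAMP response element, TGACG, and for the GC box, GGGCGG. Capitals mark these letters or their reverse complements. Bdnf is shown at chr2:109692186-109692435 (+ strand), the only one of its 7 windows with a TGACG core, which begins 35 bases before the start on the reverse strand. Ngfr is shown at chr11:95587699-95587948 (- strand).
Bdnf start 3: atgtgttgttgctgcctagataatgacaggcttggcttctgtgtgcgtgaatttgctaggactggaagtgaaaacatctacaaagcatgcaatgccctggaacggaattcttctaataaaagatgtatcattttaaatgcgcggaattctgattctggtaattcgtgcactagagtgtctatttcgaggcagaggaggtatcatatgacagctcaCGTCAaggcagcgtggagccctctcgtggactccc
Ngfr: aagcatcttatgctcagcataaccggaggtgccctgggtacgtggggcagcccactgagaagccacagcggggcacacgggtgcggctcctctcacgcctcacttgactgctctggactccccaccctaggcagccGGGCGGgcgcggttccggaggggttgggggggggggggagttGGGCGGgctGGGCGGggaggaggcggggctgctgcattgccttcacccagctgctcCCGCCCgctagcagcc
The Bdnf window held 1 TGACG core and 0 GC boxes, and the Ngfr window held 0 TGACG cores and 4 GC boxes. No base was shared by both motifs in either. Among the Bdnf windows not shown, start 2 held 2 GC boxes and start 4 held 1. Of 32851 RefSeq promoter windows of this length, 17.8% held a TGACG core and 32.7% a GC box. The Bdnf window was shown because it held a TGACG core, so it cannot be set against the 17.8%. The Ngfr window had 16 CG dinucleotides and 70.4% G and C, against medians of 6 and 52.4% over all windows. A match describes letters only, and binding was not measured.

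Levels are CPM, reads scaled to a common library size, with library sizes scaled by TMM, the trimmed mean of M values. The libraries held 26312614 to 42971823 reads. Ehmt2 (G9a, an enzyme that methylates lysine 9 of histone H3) had 45.0 and 44.2 CPM in iKO CFA, 34.0 and 31.6 CPM in iKO vehicle, 74.2 and 61.3 CPM in WT CFA and 74.4 and 65.4 CPM in WT vehicle. Under vehicle iKO stood below WT with a log2 fold change of -1.09 ± 0.18 (SE, edgeR quasi-likelihood adjusted p = 0.00655). Under CFA the fold change of -0.60 ± 0.18 missed the threshold (adjusted p = 0.154). Leaving out WT vehicle library 1 or either iKO vehicle library ended the vehicle call. Neuronal RNA was present in every library, with the neuronal genes Prph and Tubb3 between 1320.3 and 3771 CPM. The sensory neuron gene Avil ranged from 175 CPM (iKO CFA library 2) to 942 CPM (WT CFA library 1). Several libraries stood apart. The nuclear RNA Malat1 was at 1187 to 1323 CPM in WT vehicle and 27.4 to 57.0 CPM elsewhere. Summed over 10 lymphocyte genes, WT vehicle libraries 1 and 2 held 2135 and 878 CPM, while the other 6 held 3.71 to 53.6 CPM. Skeletal muscle genes summed to 441 CPM in WT vehicle library 1 and 2.70 to 8.31 CPM in the others. The libraries of WT CFA differed from each other by a median of 0.59 on the log2 scale, against 0.17 to 0.28 in the other groups.

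Summed over 19 pan-neuronal genes, levels were 17566 and 17445 CPM in iKO CFA, 24721 and 25064 CPM in iKO vehicle, 25348 and 19002 CPM in WT CFA and 12447 and 15727 CPM in WT vehicle. As a sum, the 8 genes followed the same order of groups, with 2012 and 1894 CPM in iKO CFA, 3357 and 3077 CPM in iKO vehicle, 3286 and 1758 CPM in WT CFA and 1523 and 1919.9 CPM in WT vehicle (map of marker lists). Averaged gene by gene as log2 CPM against the mean of all libraries, the order of the lowest groups was not shared. The pan-neuronal list was at -0.27 and -0.35 in iKO CFA and -0.43 and -0.085 in WT vehicle. The 8 genes were at -0.16 and -0.26 in iKO CFA and -0.48 and -0.23 in WT vehicle. In whole ganglia, fewer cells of a type and less RNA per cell cannot be told apart. Each gene's level was therefore also set against neuronal RNA, as reads per 1000 reads of those 19 genes, with a second fit that used their sum as library size. Avil, the gene whose promoter drives Cre, is 1 of the 19. As a sum, this scale weighs the abundant genes of the list most. Relative to neuronal RNA the median of all genes tested moved to 0.51 for CFA in iKO, -0.68 for CFA in WT, 0.28 for iKO against WT under CFA, -0.82 for iKO against WT under vehicle and 1.11 for the difference between the CFA responses, while under TMM these medians lay between -0.04 and 0.01.

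**Figure D1:**
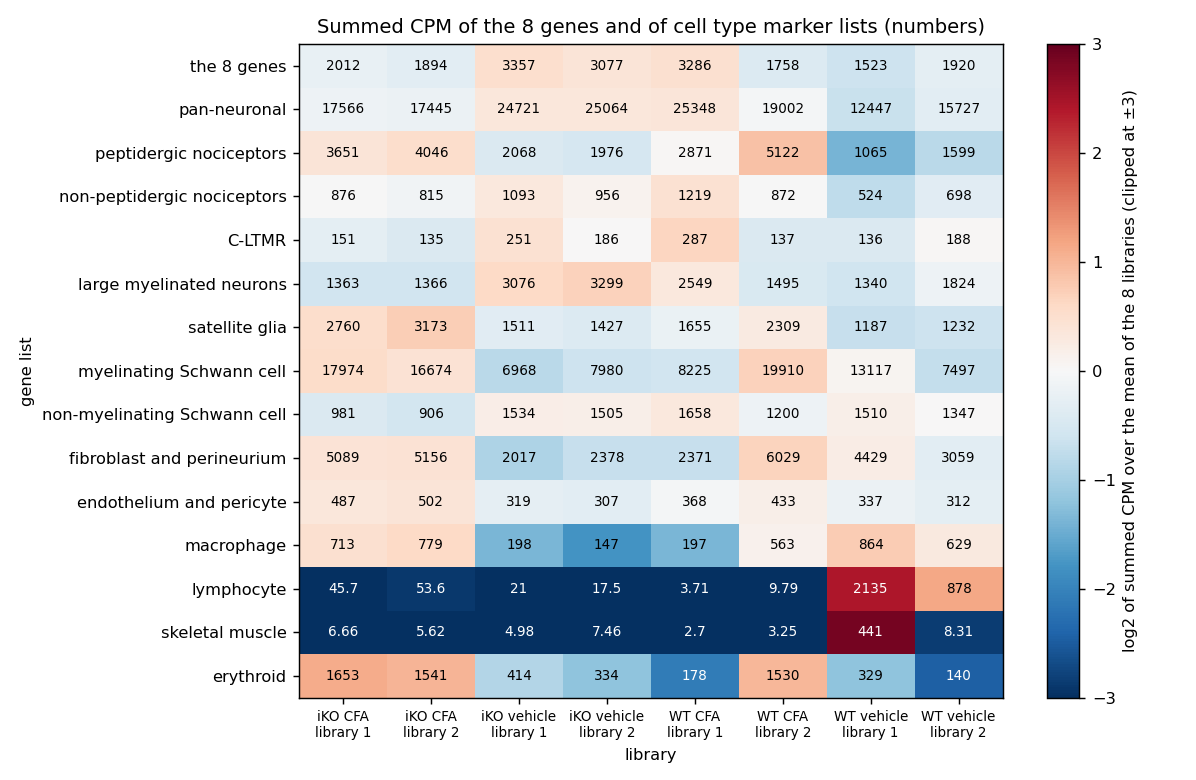
Summed CPM of the 8 genes and of 14 marker lists (rows) in each of the 8 libraries (columns), with colour for the log2 ratio to the mean of the row. The 8 genes and the pan-neuronal list share their high libraries (both iKO vehicle libraries and WT CFA library 1), and lymphocyte RNA is high in the WT vehicle libraries.

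All 8 genes passed the filter on low counts, and calls are edgeR quasi-likelihood tests with a Benjamini-Hochberg adjusted p under 0.05 over 20235 genes. With CFA in iKO, 0 of the 8 were called in either direction, where 0.0395% of all genes were called higher and 0% lower. At an unadjusted p under 0.05 there were 4 of 8, against 5791 of all 20235 genes, and DESeq2 called 2 of 8, both lower, where it called 20.6% of the genes it tested. With the iKO libraries alone edgeR called all 8, 1 higher and 7 lower, in a fit that called 4025 of all genes higher and 4284 lower. With CFA in WT, Bdnf and Gfra3 were called higher, 2 of 8 against a background of 8.12% higher and 8.71% lower. DESeq2 called 3 of 8, all higher, against 25.5%. In iKO against WT under vehicle, Bdnf, Ngfr and Gfra3 were called higher, 3 of 8 against 8.28% higher and 9.33% lower, and DESeq2 called 4 of 8, all higher, against 26.8%. In iKO against WT under CFA, 0 of 8 were called, against 1.5% higher and 0.208% lower. Here 1 of 8 had an unadjusted p under 0.05, against 2967 of all genes, and DESeq2 called 1 of 8, lower, against 6.09%. For the difference between the CFA responses (iKO minus WT), Gfra3 was called lower, 1 of 8 against 6.19% higher and 3.17% lower, and DESeq2 called 5 of 8, all lower, against 20.8%. Without the filter, edgeR called 1 of the 8 lower with CFA in iKO, in a fit that called 343 of all genes higher and 167 lower there. With the filter and all 8 libraries, every edgeR call of a member came from a comparison that includes WT vehicle. What part the RNA that sets the WT vehicle libraries apart, such as Malat1 and lymphocyte RNA, has in these calls was not tested.

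The median log2 fold change of the 8 genes was -0.54 with CFA in iKO, 0.68 with CFA in WT, -0.31 for iKO against WT under CFA, 0.65 for iKO against WT under vehicle and -1.36 for the difference between the CFA responses. The 19 pan-neuronal genes had medians of -0.67, 0.52, -0.52, 0.78 and -1.29 in the same order. WT vehicle enters every comparison except CFA in iKO and iKO against WT under CFA, so those medians share libraries and are not independent. Over the 8 libraries, the Pearson correlation of a gene with the pan-neuronal sum was 0.95 for Ntrk2, 0.94 for Gfra3, 0.91 for Ngfr, 0.86 for Ret, 0.83 for Gfra1, 0.72 for Gfra2, 0.50 for Bdnf and 0.37 for Ntrk3, as a description of points that share groups. Bdnf and Ntrk3 were thus the least like the neuronal total, and with each other they correlated at -0.61.

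**Figure D2:**
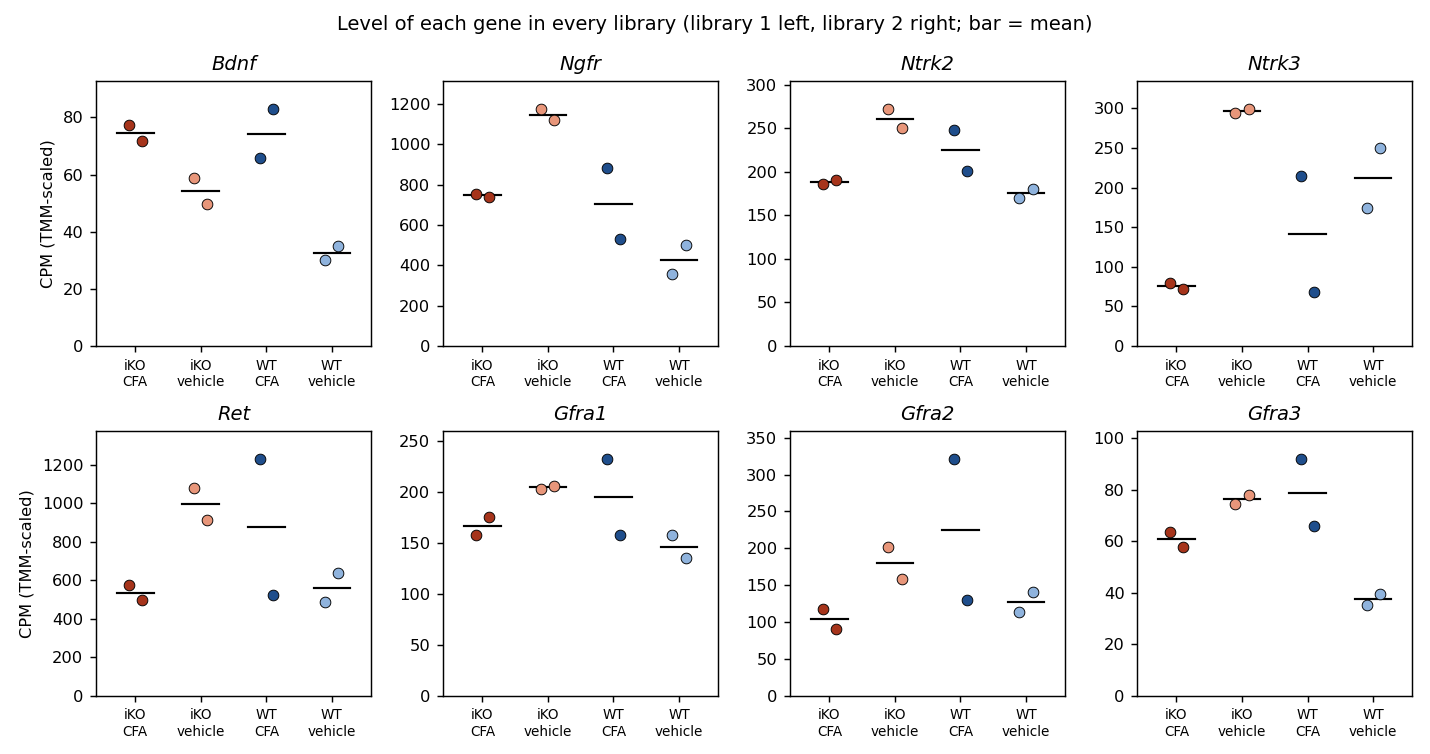
Level of each gene in CPM (vertical axis, from 0) in the libraries of iKO CFA, iKO vehicle, WT CFA and WT vehicle, with 1 point per library and a bar for the group mean. In Ret, Gfra2 and Ntrk3 the WT CFA libraries lie 2.35-fold to 3.13-fold apart, library 1 above library 2.

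Bdnf, the ligand of TrkB, was at 77.2 and 71.8 CPM in iKO CFA against 58.9 and 49.6 CPM in iKO vehicle, and at 65.9 and 82.8 CPM in WT CFA against 30.2 and 35.1 CPM in WT vehicle. The WT vehicle libraries were the lowest, and CFA libraries lay above vehicle libraries in both genotypes. Bdnf was 2.27-fold higher with CFA than with vehicle in WT (log2 fold change 1.186 ± 0.19, edgeR adjusted p = 0.00773). In iKO the change with CFA was 0.46 ± 0.19 (adjusted p = 0.161), and the difference between the responses was -0.73 ± 0.27 (adjusted p = 0.113). With the iKO libraries alone the iKO change passed (0.49, edgeR adjusted p = 0.00371), in a fit that called 8309 of all genes. Bdnf was higher in iKO than in WT under vehicle by 0.73 ± 0.19 (adjusted p = 0.0349). The genotypes overlapped under CFA (0.0029 ± 0.19). The WT response missed the threshold when WT vehicle library 1 was left out (1.08, adjusted p = 0.104) or with the WT libraries alone (1.13, 0.0702). The vehicle call was lost without any WT vehicle, iKO vehicle or iKO CFA library (0.0775 to 0.273) and in a fit with the replicate number as a block (0.0568).

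Per 1000 neuronal reads, Bdnf had 4.40 and 4.11 reads in iKO CFA against 2.38 and 1.98 in iKO vehicle, and 2.60 and 4.36 in WT CFA against 2.43 and 2.23 in WT vehicle. On this scale all CFA libraries lay above all vehicle libraries, and the vehicle libraries of both genotypes overlapped. Relative to neuronal RNA the log2 fold change with CFA was 0.96 ± 0.26 in iKO (adjusted p = 0.0772) and 0.58 ± 0.26 in WT (0.120), and iKO against WT under vehicle was -0.10 ± 0.25 (0.778), the opposite sign to the TMM value. Markers of peptidergic nociceptors, a class known to make BDNF, were at 3651 and 4046 CPM summed over 8 genes in iKO CFA against 2068 and 1976 CPM in iKO vehicle, and at 2871 and 5122 CPM in WT CFA against 1065 and 1599 CPM in WT vehicle. They too were above vehicle in every CFA library, with 7 of the 8 called higher in WT and 0 of the 8 in iKO, where 5 had an unadjusted p under 0.05. In iKO 5 of the 8 estimates were above 0 and 3 below, with a median log2 fold change of 0.34, so the sum did not rest on all of them. The part of this shift in the Bdnf result was not tested.

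**Figure D3:**
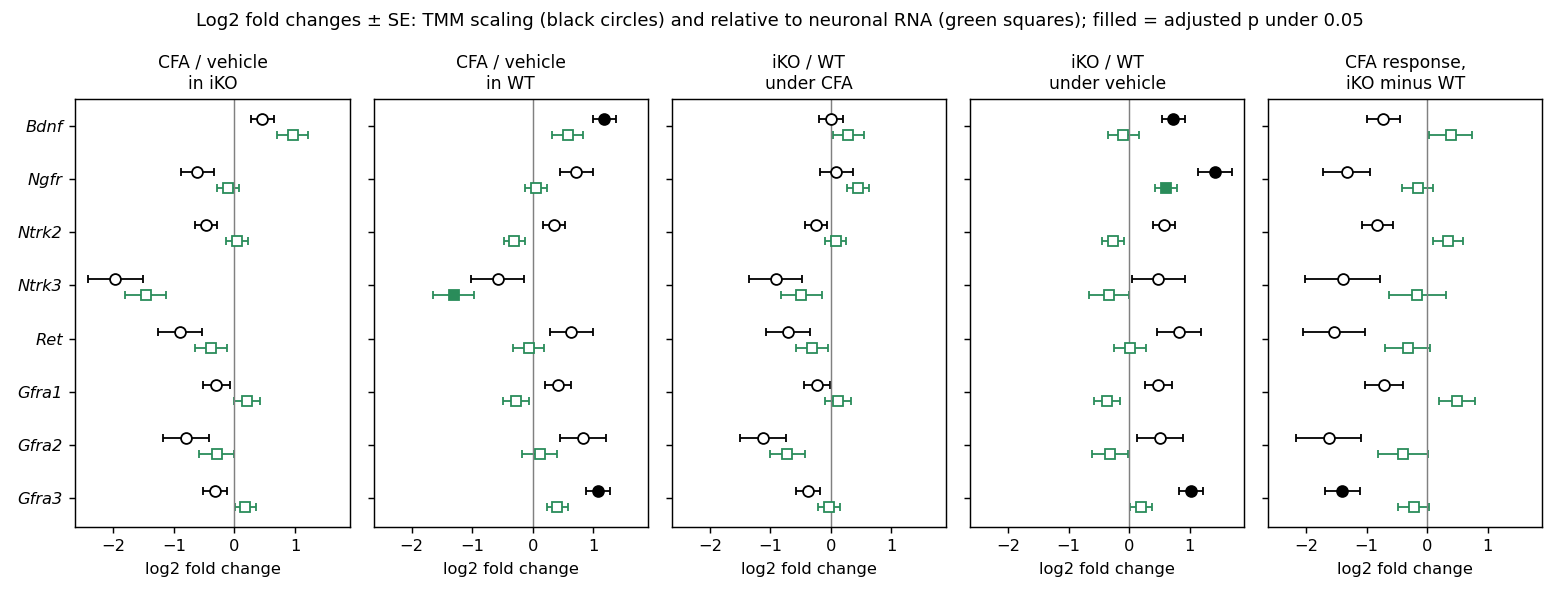
Log2 fold change ± SE of the 8 genes in 5 comparisons, under TMM scaling (black circles) and relative to neuronal RNA (green squares), with filled marks for an adjusted p under 0.05. Under TMM all 8 genes lie above 0 in iKO against WT under vehicle, and relative to neuronal RNA only Ngfr remains called there, at 0.61.

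Ngfr encodes p75, which binds every neurotrophin and pairs with Trk receptors or with sortilin and the Nogo receptor complex. It was at 756 and 741 CPM in iKO CFA against 1174 and 1121 CPM in iKO vehicle, and at 882 and 529 CPM in WT CFA against 357 and 501 CPM in WT vehicle. The iKO vehicle libraries were the highest of all. Under vehicle Ngfr was 2.68-fold higher in iKO (log2 fold change 1.42 ± 0.28, edgeR adjusted p = 0.0130). Under CFA the genotypes overlapped, at 0.09 ± 0.27 (adjusted p = 0.920). The change with CFA was -0.62 ± 0.27 in iKO (0.178) and 0.72 ± 0.27 in WT (0.104), with a difference between them of -1.33 ± 0.39 (0.0636). With the iKO libraries alone the iKO change passed (-0.59, edgeR adjusted p = 6.22e-05). DESeq2 called the WT change (0.68, adjusted p = 0.0422) and the difference (-1.27, 0.00677), but not the iKO change (-0.59, 0.0885). Leaving out WT vehicle library 1 ended the vehicle call (1.18, adjusted p = 0.120), as did leaving out iKO vehicle library 1 (1.39, 0.0854) or 2 (1.46, 0.0855).

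Ngfr was the 1 gene of the 8 called between genotypes relative to neuronal RNA. It had 43.1 and 42.5 reads per 1000 neuronal reads in iKO CFA and 47.5 and 44.7 in iKO vehicle, against 34.8 and 27.8 in WT CFA and 28.7 and 31.8 in WT vehicle. Every iKO library lay above every WT library. On this scale Ngfr was higher in iKO under vehicle by 0.61 ± 0.18 (adjusted p = 0.0313), in a fit that called 270 genes higher and 7164 lower. With CFA it was 0.45 ± 0.18 (0.300). Because p75 is also made by glia, their markers are given: satellite glia summed to 2760.0 and 3173 CPM in iKO CFA and 1511 and 1427 CPM in iKO vehicle, against 1655 and 2309 CPM in WT CFA and 1187 and 1232 CPM in WT vehicle. Non-myelinating Schwann cell genes summed to 981 and 906 CPM in iKO CFA and 1534 and 1505 CPM in iKO vehicle, against 1658 and 1200 CPM in WT CFA and 1510.0 and 1347 CPM in WT vehicle. Satellite glia sums lay above WT in iKO within each treatment. Gene by gene, 1 of 9 was called higher under vehicle, near the background share, and under CFA 0 were called, with 4 estimates above 0, 5 below and a median of -0.01. The non-myelinating Schwann cell sums lay below WT in iKO under CFA, and under vehicle 2 of 7 genes were called lower. Their part in the result was not tested.

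**Figure D4:**
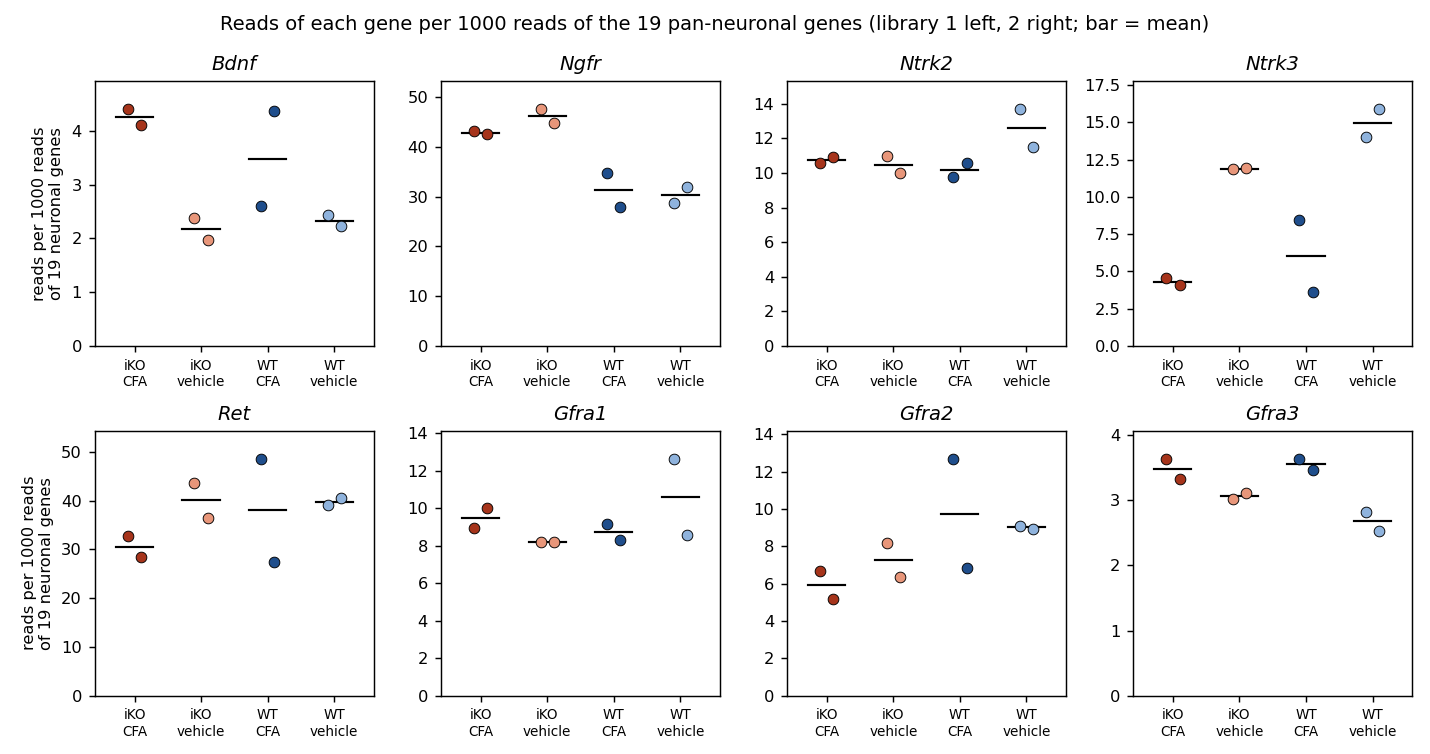
Reads of each gene per 1000 reads of the 19 pan-neuronal genes (vertical axis, from 0), with 1 point per library and a bar for the group mean. Ngfr is at 42.5 to 47.5 in iKO and 27.8 to 34.8 in WT, and Ntrk3 is at 3.62 to 8.48 with CFA and 11.9 to 15.9 with vehicle.

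Ntrk2 encodes TrkB, the receptor through which BDNF signals. It was at 186 and 191 CPM in iKO CFA against 271 and 250.1 CPM in iKO vehicle, and at 248 and 201 CPM in WT CFA against 170.2 and 181 CPM in WT vehicle. The groups did not overlap in any of the 4 comparisons, yet none passed in the main edgeR fit of all 8 libraries. The log2 fold change was 0.57 ± 0.18 for iKO against WT under vehicle (adjusted p = 0.0604), with the opposite sign relative to neuronal RNA (-0.26 ± 0.18). With CFA it was -0.47 ± 0.18 in iKO (0.140) and 0.36 ± 0.18 in WT (0.204), again with opposite signs relative to neuronal RNA (0.04 and -0.30). With the iKO libraries alone the change in iKO passed (-0.44, edgeR adjusted p = 0.000719). Per 1000 neuronal reads Ntrk2 lay between 9.79 and 13.7 in the 8 libraries. DESeq2 called it lower with CFA in iKO (-0.44, adjusted p = 0.0342) and higher in iKO under vehicle (0.51, 0.00838). The difference between the CFA responses was -0.83 ± 0.26 in edgeR (adjusted p = 0.0744), and DESeq2 called it lower (-0.77, 0.00683).

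Ntrk3 encodes TrkC, known from proprioceptors. It was at 79.7 and 71.4 CPM in iKO CFA against 294 and 299 CPM in iKO vehicle, and at 215 and 68.8 CPM in WT CFA against 174 and 249 CPM in WT vehicle. WT CFA library 2 thus lay with the iKO CFA libraries and WT CFA library 1 with the vehicle libraries. In iKO the level with CFA was 0.255 of that with vehicle (log2 fold change -1.97 ± 0.45), which did not pass in edgeR with all 8 libraries (adjusted p = 0.0943). It passed with the iKO libraries alone (-1.94, 3.90e-06), without WT CFA library 1 or 2 (-1.98, 6.58e-05 and 5.76e-05), without the filter on low counts (-1.99, 0.0408) and in DESeq2 (-1.95, 0.000341). In WT the change with CFA was -0.58 ± 0.44 (0.393), but -1.63 without library 1 of WT CFA (adjusted p = 0.000280) and 0.02 without library 2 (0.953).

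Relative to neuronal RNA the CFA libraries of both genotypes lay below the vehicle libraries, with 4.54 and 4.09 reads of Ntrk3 per 1000 neuronal reads in iKO CFA against 11.9 and 11.9 in iKO vehicle, and 8.48 and 3.62 in WT CFA against 14.0 and 15.9 in WT vehicle. The log2 fold change was -1.46 ± 0.34 in iKO (edgeR adjusted p = 0.0772) and -1.30 ± 0.34 in WT (0.0234), the only member call with CFA on this scale, in a WT fit that called 5557 genes lower and 120 higher. Large myelinated neuron markers summed over 11 genes to 1363 and 1366 CPM in iKO CFA against 3076 and 3299 CPM in iKO vehicle, and to 2549 and 1495 CPM in WT CFA against 1340.0 and 1824 CPM in WT vehicle. With CFA in iKO their median log2 fold change was -1.25, with 0 of 11 called and 9 at an unadjusted p under 0.05. In WT it was 0.27, with 2 called higher. With CFA in iKO the estimates were above 0 for 11 of 11 myelinating Schwann cell genes, 10 of 10 fibroblast genes, 10 of 10 macrophage genes and 6 of 6 erythroid genes, of which 1, a fibroblast gene, was called. The part of any of these lists in the Ntrk3 values was not tested. Ntrk2 and Ntrk3 overlap genes of the opposite strand in GENCODE M21, as do Bdnf and Gfra1, and since strand was not stated their reads could include those genes.

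Ret encodes the kinase shared by all GFRα co-receptors. It was at 574 and 496 CPM in iKO CFA against 1079.7 and 916 CPM in iKO vehicle, and at 1230.1 and 523 CPM in WT CFA against 486 and 639 CPM in WT vehicle. WT CFA library 1 was the highest of all and library 2 lay between the WT vehicle libraries. No comparison passed in edgeR with all 8 libraries. The log2 fold change was -0.90 ± 0.36 with CFA in iKO (adjusted p = 0.151), 0.64 ± 0.36 with CFA in WT (0.251) and 0.83 ± 0.36 for iKO against WT under vehicle (0.142). For iKO against WT under CFA it was -0.71 ± 0.36 (0.402), which became -1.21 (0.00118) without WT CFA library 2 and 0.03 (0.961) without library 1. The difference between the CFA responses was -1.54 ± 0.51 (0.0875), and DESeq2 called it (-1.47, 0.0199).

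Gfra1, the co-receptor of GDNF, was at 157 and 175 CPM in iKO CFA against 203 and 205 CPM in iKO vehicle, and at 232 and 158 CPM in WT CFA against 157 and 135 CPM in WT vehicle. With all 8 libraries no comparison passed in edgeR, with log2 fold changes between -0.71 and 0.48. Gfra2, the co-receptor of neurturin, was at 117 and 90.2 CPM in iKO CFA against 202 and 159 CPM in iKO vehicle, and at 321 and 129.9 CPM in WT CFA against 113 and 140.5 CPM in WT vehicle. WT CFA library 1 alone stood above the iKO vehicle libraries. Under CFA iKO was below WT in both libraries, at -1.12 ± 0.38 (adjusted p = 0.216). DESeq2 called this difference (-1.11, 0.0480), as did edgeR without WT CFA library 2 (-1.64, 0.000348), but not without library 1 (-0.32, 0.434).

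Gfra3, the co-receptor of artemin and known from peptidergic nociceptors, was at 63.6 and 57.9 CPM in iKO CFA against 74.5 and 78.0 CPM in iKO vehicle, and at 92.0 and 65.8 CPM in WT CFA against 35.1 and 39.7 CPM in WT vehicle. Both WT vehicle libraries were below the 6 others. Gfra3 was 2.11-fold higher with CFA than with vehicle in WT (log2 fold change 1.08 ± 0.20, edgeR adjusted p = 0.0125). It was 2.04-fold higher in iKO than in WT under vehicle (1.03 ± 0.20, 0.0133). With CFA in iKO the log2 fold change was -0.33 ± 0.20 (0.305), and the difference between the responses, -1.40 ± 0.28, was called (0.0233). Under CFA iKO against WT was -0.38 ± 0.20 (0.422). The 3 calls share the WT vehicle libraries and were lost without library 1 of that group (adjusted p 0.126, 0.134 and 0.128). The WT response was also lost without WT vehicle library 2 (0.0502), the vehicle call without either iKO vehicle library (0.0861 and 0.112), and the difference between responses without any library except those of WT CFA (0.0529 to 0.128). Relative to neuronal RNA none passed (0.41 ± 0.18 with CFA in WT, 0.20 ± 0.18 for iKO against WT under vehicle and -0.23 ± 0.25 for the difference between responses), and Gfra3 had 3.32 to 3.63 reads per 1000 neuronal reads with CFA and 2.52 to 3.11 with vehicle.

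**Figure D5:**
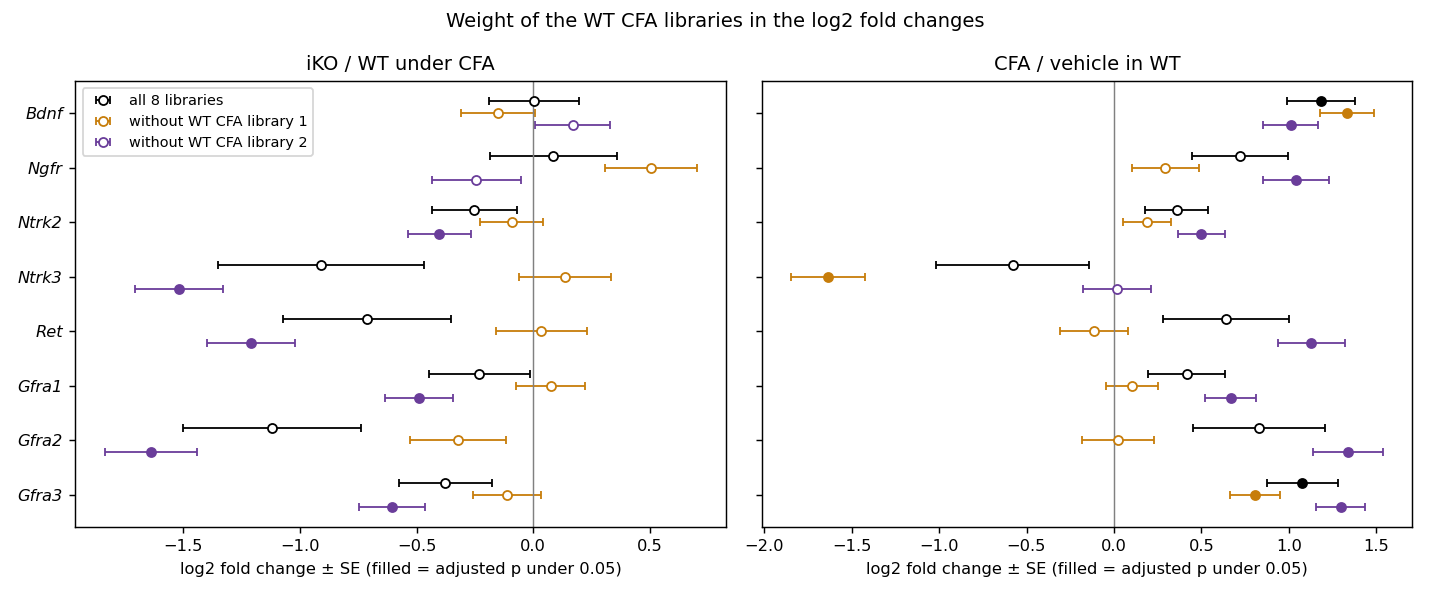
Log2 fold change ± SE of each gene for iKO against WT under CFA (left) and for CFA against vehicle in WT (right), with all 8 libraries and without either WT CFA library, filled where the adjusted p was under 0.05. For iKO against WT under CFA, the median log2 fold change of the 8 genes was -0.55 without WT CFA library 2 and -0.03 without library 1.

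The libraries of WT CFA decided much of what passed. Without WT CFA library 2, Ntrk2, Ntrk3, Ret, Gfra1, Gfra2 and Gfra3 were called lower in iKO than in WT under CFA, 6 of 8, in a fit that called 3345 genes lower and 2474 higher. There, 7 of 8 were called higher with CFA in WT, Ntrk3 being the exception, where 3615 genes were called higher and 2882 lower. Without WT CFA library 1, the log2 fold change with CFA in WT was 1.33 for Bdnf, 0.81 for Gfra3 and -1.63 for Ntrk3. The other genes lay between -0.11 and 0.29. For iKO against WT under CFA, the median of the 8 genes was -0.55 without library 2 and -0.03 without library 1. Leaving out either of them also let all 8 pass as higher in iKO under vehicle, a comparison in which neither takes part, because the groups share 1 estimate of the spread, and those fits called 4610 and 4617 of all genes higher. The comparison of CFA with vehicle in iKO, in which neither takes part, shares that estimate too. With the iKO libraries alone all 8 genes were called there, against 0 with all 8 libraries and the same filter on low counts, in a fit that called 8309 of all genes. Library 2 of WT CFA also stood apart from library 1 in non-neuronal RNA. Erythroid genes summed to 1653 and 1541 CPM in iKO CFA, 414 and 334 CPM in iKO vehicle, 178 and 1530.3 CPM in WT CFA and 329 and 139.5 CPM in WT vehicle. Myelinating Schwann cell genes summed to 17974 and 16674 CPM in iKO CFA, 6968 and 7980.4 CPM in iKO vehicle, 8225 and 19910 CPM in WT CFA and 13117 and 7497 CPM in WT vehicle. On both lists WT CFA library 2 lay with the iKO CFA libraries or above, and library 1 within the range of the vehicle libraries. Fibroblast genes (2371 and 6029 CPM) and macrophage genes (197 and 563 CPM) were likewise higher in WT CFA library 2 than in library 1. The part of this RNA in the members' values was not tested.

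To compare levels between genes, CPM were divided by transcript length in kb (GENCODE M21 principal transcript). Ngfr was the highest in every group, with 217 ± 3.2 CPM per kb in iKO CFA, 333 ± 11 in iKO vehicle, 205 ± 72 in WT CFA and 124 ± 30 in WT vehicle (SD, n = 2). Ret was second everywhere, with 98.1 ± 10 CPM per kb in iKO CFA, 183 ± 21 in iKO vehicle, 161 ± 92 in WT CFA and 103 ± 20 in WT vehicle, and in both WT groups its spread reached that of Ngfr. Ntrk3 was the lowest with CFA, at 3.83 ± 0.30 CPM per kb in iKO CFA and 7.20 ± 5.25 in WT CFA. Bdnf was the lowest with vehicle, at 12.7 ± 1.5 CPM per kb in iKO vehicle and 7.66 ± 0.81 in WT vehicle. The libraries of Bdnf lay below those of Ntrk3 in both vehicle groups, though in WT vehicle the means ± SD touched. The co-receptors and Ntrk2 lay between, with changing order, from 18.7 (Gfra3, WT vehicle) to 64.9 CPM per kb (Gfra2, WT CFA). Lengths from all exons of a gene kept Ngfr first and Ret second in the 4 groups. They put Ntrk2 below Bdnf with CFA, at 9.77 against 11.98 CPM per kb in iKO CFA. In WT CFA they were at 11.65 and 11.96 CPM per kb, with overlapping libraries. The place of Ntrk2 thus depends on the length used.

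Other genes of these pathways were followed in 7 lists of 124 genes, of which 118 were tested. Their counts were 0 higher and 0 lower with CFA in iKO (edgeR, 46 at an unadjusted p under 0.05 and 30 called by DESeq2), 18 higher and 6 lower with CFA in WT, 1 higher and 0 lower in iKO against WT under CFA, 19 higher and 11 lower in iKO against WT under vehicle, and 6 higher and 11 lower for the difference between the CFA responses. Of all 20235 genes tested, edgeR called 0.0395% higher and 0% lower with CFA in iKO, and 8.12% and 8.71% with CFA in WT. For iKO against WT it called 1.5% and 0.208% under CFA, and 8.28% and 9.33% under vehicle. For the difference between the CFA responses it called 6.19% and 3.17%. Relative to neuronal RNA, where 5557 of 5677 calls over all genes with CFA in WT and 7164 of 7434 in iKO against WT under vehicle were lower, the splits were 3 higher and 44 lower with CFA in WT, 1 higher and 46 lower in iKO against WT under vehicle, and 43 higher and 0 lower for the difference between responses. Without WT vehicle library 1, the calls numbered 2, 2 and 1 in those comparisons. Of the calls with all libraries, 2 of 24, 2 of 30 and 1 of 17 stood whichever library was left out, among them Fos in each, so the calls named below rest on few libraries.

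The other ligands named here were scarce in the ganglion. Gdnf had 1 and 0 reads in iKO CFA against 9 and 13 in iKO vehicle, and 14 and 0 in WT CFA against 75 and 45 in WT vehicle. Its change with CFA in iKO did not pass (adjusted p = 0.162). Gdf15, a stress-induced ligand whose receptor GFRAL also acts through RET, had 0 reads in both WT CFA libraries against 18 and 9 reads in WT vehicle, at least 9.46-fold lower with the floor set at 3 reads over the group. Its adjusted p of 0.0326 was lost without 6 of the 8 libraries in turn. Of the 6 ligands tested, Gdf15 was the 1 called with CFA in WT, where 8.71% of all genes were called lower.

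Gfra4, the co-receptor of persephin, was at 14.0 and 16.9 CPM in iKO CFA, 16.6 and 20.8 CPM in iKO vehicle, 17.2 and 18.7 CPM in WT CFA and 7.34 and 10.5 CPM in WT vehicle, where the WT vehicle libraries were the low ones. Gfra4 was higher with CFA than with vehicle in WT (log2 fold change 1.01 ± 0.24, edgeR adjusted p = 0.0265). It was also higher in iKO under vehicle (1.07 ± 0.24, 0.0211) and had a lower CFA response in iKO (-1.28 ± 0.34, 0.0494). The p75 partners in the Nogo receptor complex were both higher in iKO than in WT under vehicle, Lingo1 by 1.39 ± 0.33 (0.0241) and Rtn4r by 1.58 ± 0.32 (0.0144). In all, 4 of 11 other receptors were called higher and 0 lower there, and 2 of 11 higher and 0 lower with CFA in WT. The shares of all genes were 8.28% higher and 9.33% lower in the first comparison, and 8.12% and 8.71% in the second.

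Among 16 p75 partners tested, 5 were higher and 1 lower in iKO against WT under vehicle, and 4 were higher and 0 lower with CFA in WT. Of all genes, 8.28% were higher and 9.33% lower in the first comparison, and 8.12% and 8.71% in the second. Ndn, which encodes the p75-binding protein necdin, was higher with CFA than with vehicle in WT (log2 fold change 1.32 ± 0.20, edgeR adjusted p = 0.00613) and higher in iKO under vehicle (1.124 ± 0.20, 0.00899). Arhgdia, an inhibitor of small GTPases, was likewise higher in both comparisons (0.87 ± 0.19, 0.0188, and 0.86 ± 0.19, 0.0184). Psen2, a catalytic subunit of the γ-secretase that cuts p75, was higher in iKO under vehicle by 0.65 ± 0.18 (0.0386), but with the opposite sign relative to neuronal RNA (-0.17).

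Of 42 adaptors and kinases downstream of Trk receptors and RET, 5 were higher and 3 lower in iKO against WT under vehicle, and 6 were higher and 1 lower with CFA in WT. Among all genes, 8.28% were higher and 9.33% lower in the first comparison, and 8.12% and 8.71% in the second. Mapk3, the kinase ERK1, was higher with CFA than with vehicle in WT (log2 fold change 0.90 ± 0.20, edgeR adjusted p = 0.0226). It was also higher in iKO under vehicle (0.95 ± 0.20, 0.0177), with a lower CFA response in iKO (-1.24 ± 0.29, 0.0352). Frs3, an adaptor of Trk receptors, was called in the same comparisons (1.06, 0.97 and -1.08), the last with the opposite sign relative to neuronal RNA (0.06). Pik3r1, a regulatory subunit of phosphatidylinositol kinase, was lower in iKO under vehicle (-1.005 ± 0.18, 0.00974). Mmp9, a protease that can cleave pro-neurotrophins, was at 55.0 and 59.6 CPM in iKO CFA against 5.07 and 2.53 CPM in iKO vehicle, and at 1.18 and 4.86 CPM in WT CFA against 2.38 and 1.52 CPM in WT vehicle. It was the 1 pathway gene called in iKO against WT under CFA (4.27 ± 0.61, 0.0140), a call lost without either iKO CFA library.

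The feedback inhibitor Spry1 was at 8.10 and 9.68 CPM in iKO CFA against 1.99 and 2.64 CPM in iKO vehicle, and at 3.82 and 3.18 CPM in WT CFA against 7.51 and 5.36 CPM in WT vehicle. It was lower in iKO under vehicle (log2 fold change -1.48 ± 0.31, edgeR adjusted p = 0.0158) and its CFA response was higher in iKO than in WT (2.82 ± 0.43, 0.00882). Among 12 genes known to respond to neurotrophins, 3 were higher and 3 lower in iKO against WT under vehicle and likewise with CFA in WT. The 3 lower ones were Fos, Egr1 and Nr4a1, immediate early genes, in both. The shares of all genes were 8.28% higher and 9.33% lower in iKO against WT under vehicle, and 8.12% and 8.71% with CFA in WT. Fos was at 5.21 and 5.87 CPM in iKO CFA, 4.09 and 5.63 CPM in iKO vehicle, 4.70 and 3.01 CPM in WT CFA and 99.1 and 91.9 CPM in WT vehicle, so the WT vehicle libraries were the ones apart. Trpv1, the heat and capsaicin channel, was higher with CFA than with vehicle in WT (1.21 ± 0.21, 0.0100). Vgf, a neurotrophin-induced secreted protein, was higher in iKO under vehicle (1.05 ± 0.25, 0.0264).

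The genes most like each member over the 8 libraries were named by the Pearson correlation of log2 CPM among 10396 genes with a mean log2 CPM of at least 3. For Bdnf they were Jmjd8, Cmas and Cystm1 (0.989 to 0.995), for Ngfr Ehd3, Smyd5 and Psmf1 (0.994 to 0.995), for Ntrk2 Cacul1, Hectd3 and Tmem33 (0.983 to 0.998) and for Ntrk3 Snx29, Phf20 and Aak1 (0.994 to 0.996). For Ret they were Ddx47, Prrxl1 and Vamp2 (0.993 to 0.996), for Gfra1 Cbx6, Vps37c and Slc35c1 (0.965 to 0.968), for Gfra2 Scg3, Wnt2b and Cd44 (0.980 to 0.985) and for Gfra3 Cops7a, Mapk3 and Cdipt (0.992 to 0.994). For each member these are the 3 highest of 10396 correlations over only 8 libraries, so they are high by selection. The median correlation with all genes compared was 0.08 for Bdnf and 0.17 to 0.32 for the others. Between members, Ret and Gfra2 were the most alike, at 0.92.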

How the data were processed

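Ganglion RNA of 8 libraries was sequenced. The authors deposited raw read counts per gene, made with HISAT2 2.2.1, SAMtools 1.19.2 and featureCounts 2.0.6 on GRCm39, per the submitters' processing notes; the strand setting and annotation are not given in the sources used here. Libraries held 26312614 to 42971823 counted reads. The 8 genes and all gene lists were chosen with earlier results of these data known. All 8 libraries entered one edgeR 4.0.16 quasi-likelihood fit (R 4.3.3, filterByExpr, TMM, 4 group means), with Benjamini-Hochberg adjustment over 20235 genes and a threshold of 0.05. The neuronal fit used the summed reads of 19 genes as library sizes. Pathway genes that could be named were picked by a fixed rule: per list and comparison, the 4 with the smallest p past the threshold, or the 1 with the smallest p where none passed. The text describes only a part of them. Likeness named 3 genes per member. Alternatives were DESeq2 1.42.0 and its size factors, no filter, edgeR's newer quasi-likelihood method, a replicate block, compared groups only and each library left out; running pathway genes and Ehmt2 through them was chosen after seeing the data. The fit was tested on simulated data. Some genes of the lists are counted in the totals but not reported here by name.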

Additional observations from a re-analysis of the deposited data

Results flagged for a closer look

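A CFA response that differed between iKO and WT (log2 fold change in iKO minus that in WT, by edgeR's test of the difference) was found for 1 of the 8 genes, Gfra3, at -1.40 (adjusted p = 0.0233), where the log2 fold change was -0.33 in iKO and 1.08 in WT. Of all genes, 6.19% were called higher and 3.17% lower. The estimates of all 8 genes lay below 0, and DESeq2 called 5 of the 8 lower, where it called 20.8% of the genes it tested. Relative to neuronal RNA 0 of the 8 passed. The Gfra3 call was also lost without any library except those of WT CFA. Among the other pathway genes named, the response was lower in iKO for Lingo1 (-1.92), Gfra4 (-1.28), Pcsk2 (-1.51), Mapk3 (-1.24), Frs3 (-1.08), Ndn (-1.23), Arhgdia (-1.003), Etv1 (-1.60) and Vgf (-1.59), with the opposite sign relative to neuronal RNA for Frs3 (0.056) and Arhgdia (0.16). It was higher in iKO for Mmp9 (3.29), Dok2 (2.73), Spry1 (2.82), Fos (4.81) and Egr1 (3.01). All of these use the WT vehicle libraries, both of which held lymphocyte RNA and the first of which held muscle RNA, and without WT vehicle library 1 only Fos of the pathway genes still passed. What part that RNA has in these differences was not tested.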

How the results depend on the processing

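Over 15 other settings, 592 values of the 8 genes were recomputed: 467 kept their direction and their side of the threshold, 28 no longer passed, 69 newly passed and 28 changed sign, none of them called with both signs. Most of the 592 values were of results not called in the main fit, which could not stop passing. The 28 that no longer passed fell on the member calls with CFA in WT (7), in iKO against WT under vehicle (14) and in the difference between responses (7). Counts below are of the 8 genes and then of all genes. With CFA in iKO (0 and 8 called), they were 1 and 510 without the filter, 2 and 3449 in DESeq2, 8 and 8309 with the compared groups only, and 0 to 7 and 0 to 6951 with 1 library left out; all genes gave 181 with edgeR's newer method, 0 in the replicate block and 0 relative to neuronal RNA. With CFA in WT (2 and 3406), they were 1 and 5677 relative to neuronal RNA, 0 and 754 with the compared groups only, and 0 to 7 and 259 to 7474 with 1 library left out; all genes gave 5154 in DESeq2. For iKO against WT under CFA (0 and 345), they were 1 and 1232 in DESeq2 and 0 to 6 and 73 to 5819 with 1 library left out; all genes gave 542 with edgeR's newer method, 207 in the replicate block and 33 with the compared groups only. For iKO against WT under vehicle (3 and 3564), they were 1 and 7434 relative to neuronal RNA, 6 and 8179 with the compared groups only, and 0 to 8 and 394 to 8464 with 1 library left out. For the difference between the CFA responses (1 and 1895), they were 5 and 4133 in DESeq2, 0 and 6272 relative to neuronal RNA, and 0 to 7 and 228 to 8303 with 1 library left out; all genes gave 1062 in the replicate block. Relative to neuronal RNA the sign changed with CFA in iKO for Ntrk2 (0.039), Gfra1 (0.21) and Gfra3 (0.18); with CFA in WT for Ntrk2 (-0.30), Ret (-0.067), Gfra1 (-0.28) and Psen2 (-0.020); for iKO against WT under CFA for Ntrk2 (0.080) and Gfra1 (0.12); for iKO against WT under vehicle for Bdnf (-0.096), Ntrk2 (-0.26), Ntrk3 (-0.33), Gfra1 (-0.37), Gfra2 (-0.31), Map2k2 (-0.13) and Psen2 (-0.17); and for the difference between responses for Bdnf (0.39), Ntrk2 (0.34), Gfra1 (0.49), Frs3 (0.056) and Arhgdia (0.16). Bdnf in iKO against WT under CFA, at 0.0029, was -0.0092 with DESeq2 size factors, -0.00020 without the filter, -0.0090 in DESeq2 and -0.0028 with the compared groups only. Leaving out 1 library gave both signs with CFA in WT for Ntrk3 (-1.63 to 0.020), Ret (-0.11 to 1.13) and Ehmt2 (-0.20 to 0.087), and for iKO against WT under CFA for Bdnf (-0.15 to 0.17), Ngfr (-0.24 to 0.50), Ntrk3 (-1.52 to 0.14), Ret (-1.21 to 0.035) and Gfra1 (-0.49 to 0.075). The causes were not tested. Deviations of libraries with the same number correlated at -0.14 to 0.03 between groups, so the numbers were not taken as pairs; the replicate block ended 1 member call, Bdnf in iKO against WT under vehicle (0.735, edgeR adjusted p = 0.0568). Where an arm was left with 1 library, that library was assumed to vary like the other groups.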
